A study of Mus musculus with 8 samples.

Results

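The 10 genes described here encode the insulin-like growth factors, their receptors and their binding proteins: the ligands Igf1 and Igf2, the receptors Igf1r and Igf2r, and the binding proteins Igfbp2, Igfbp3, Igfbp4, Igfbp5, Igfbp6 and Igfbp7. They were taken by gene name from 8 gene-level tables of mouse hippocampus, and all 10 were found among the 55188 genes listed. The tissue came from C57BL/6 mice before fear conditioning, in a group labelled wild type (WT) and a group labelled KO, for a knockout of the tyrosine kinase Pyk2 encoded by Ptk2b. Every sample, WT included, also carries the description of a transgenic mouse, and the sources used here give no age, sex or kind of KO allele. Each group holds 2 numbered animals with 2 technical replicates each, averaged per animal (n = 2 per group). Whether each number is a separate mouse is not said in the labels, so p-values measure the spread between these numbered units.

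Igf1 and Igf2 are small insulin-related peptides that act through the tyrosine kinase receptor Igf1r, while Igf2r, the cation-independent mannose-6-phosphate receptor, takes up Igf2 and carries it to lysosomes. The binding proteins hold the ligands outside the cell and set how much of them reaches a receptor. In adult brain Igf2 is known as a product of the choroid plexus and the leptomeninges, from where it reaches the cerebrospinal fluid, whereas Igf1 is made by scattered neurons and glia. From this background the members were placed in 3 classes: choroid and meningeal (Igf2, Igfbp2, Igfbp6), vascular (Igfbp3, Igfbp7) and parenchymal (Igf1, Igf1r, Igf2r, Igfbp4, Igfbp5).

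The stretches before the start sites of Igf2, Igfbp2 and Igfbp5 are shown because Igf2 and Igfbp2 had nearly the same profile over the animals, while Igfbp5, which is next to Igfbp2 on the opposite strand with 5457 bases between the annotated genes, did not share it. They are RefSeq sequences of build GRCm38.p6, written 5′ to 3′ on the gene's strand and cut where an exon of the GENCODE M21 annotation begins. Capitals mark GGGCGG, the core of the GC box, or its reverse complement. Igf2 has 4 start sites in this table, and the one shown is the most downstream; Igfbp2 has 2, and the upstream one is shown. The gene-level values do not show which start site was used.

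Igf2, chr7:142657497-142657746, minus strand: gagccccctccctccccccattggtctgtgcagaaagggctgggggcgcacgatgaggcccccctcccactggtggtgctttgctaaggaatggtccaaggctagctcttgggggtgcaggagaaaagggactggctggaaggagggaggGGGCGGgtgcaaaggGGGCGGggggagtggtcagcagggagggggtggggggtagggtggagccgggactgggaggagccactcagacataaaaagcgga

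Igfbp2, chr1:72824230-72824479, plus strand: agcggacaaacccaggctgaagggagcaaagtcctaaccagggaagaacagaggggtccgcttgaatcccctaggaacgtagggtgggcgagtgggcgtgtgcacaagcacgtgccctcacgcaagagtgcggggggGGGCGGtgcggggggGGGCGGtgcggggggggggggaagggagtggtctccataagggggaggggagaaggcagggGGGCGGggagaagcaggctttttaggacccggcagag

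Igfbp5, chr1:72874885-72875115, minus strand: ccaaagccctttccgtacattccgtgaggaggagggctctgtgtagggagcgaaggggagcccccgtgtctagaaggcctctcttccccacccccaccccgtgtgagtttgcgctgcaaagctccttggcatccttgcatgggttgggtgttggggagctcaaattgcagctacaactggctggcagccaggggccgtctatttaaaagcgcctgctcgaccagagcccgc

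In the 250 bases before the start, GGGCGG on either strand occurred 3 times for Igfbp2, 2 times for Igf2 at this start site and 0 times for Igfbp5, and 32.7% of all 32851 promoter windows held it. The other 3 Igf2 windows held 0, 0 and 1 matches and the other Igfbp2 window 0, so the windows shown are those with the most matches. Igf1r with 2, Igf2r with 3 and Igfbp7 with 4 matches held it too. Whether the motif goes with any profile was not tested. TATAAA was in none of these 3 windows and in 12.4% of all windows. TAATCC, letters that homeodomain proteins of the Otx type can bind, was in none of the 14 windows of the members and in 6.25% of all windows. Both strands were searched, no matches of different motifs overlapped in the windows shown, and a match is a description of the letters only.

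Levels are given as FPKM (fragments normalized for transcript length and sequencing depth), so they can be compared between genes. Igf2 and Igfbp2 were the most abundant members in WT, at 92.8 ± 36.4 and 86 ± 22.4 FPKM (SD, n = 2), and their ranges over the WT animals overlapped. Next came Igfbp4 at 43.1 ± 0.602, Igfbp5 at 30.5 ± 1.06 and Igfbp7 at 16.7 ± 2.33 FPKM, each outside the range of its neighbours in this order. Igfbp6, Igfbp3, Igf2r and Igf1r stood between 5.55 and 7.22 FPKM; the ranges of Igfbp6 and Igfbp3 overlapped, as did those of Igfbp3 and Igf2r. Igf1 was lowest at 1.19 ± 0.143 FPKM. By the means of the KO-labelled animals the order began with Igfbp4 at 49.3 ± 7.44 and Igfbp5 at 27.4 ± 2.94 FPKM, followed by Igf2 and Igfbp2. The ranges of Igfbp5 (25.3 to 29.5 FPKM) and Igf2 (16.5 to 26.3 FPKM) overlapped, as did those of Igf2 and Igfbp2. In KO2, Igf2 was above Igfbp5.

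**Figure D1:**
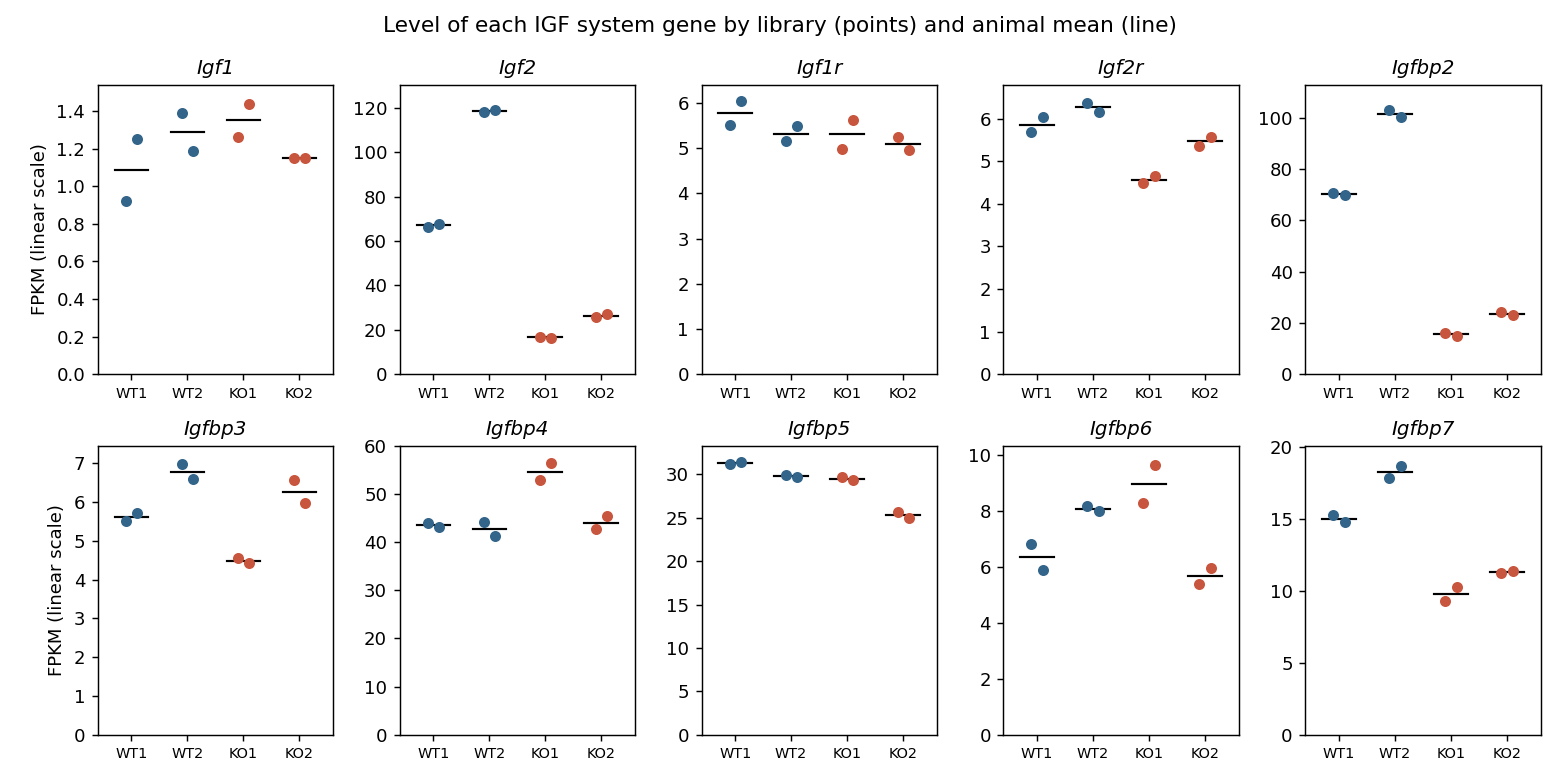
Level of each of the 10 genes in FPKM on a linear axis from 0. Each point is 1 library, the black line is the mean of the 2 technical replicates of an animal, blue is WT and red is KO as labelled; Igf2 and Igfbp2 libraries of the KO group all sit below every WT library, while Igf1 libraries of both groups intermingle.

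None of the 10 members passed a Benjamini-Hochberg adjusted p of 0.05 in limma, fitted over all 16667 genes with at least 0.5 FPKM in 2 animals, where 0.0540% of genes passed. All 10 members met that minimum in every animal of both groups. At an unadjusted p under 0.05, 3 members were lower in the KO-labelled animals (Igf2, Igfbp2 and Igfbp7) against 11.4% of all genes, and 0 were higher against 4.11%. For 6 members, the KO pair was entirely below the WT pair (30.7% of all genes) and for 1, Igfbp4, entirely above it (18.4% of all genes). The median log2 difference, KO minus WT on the log2(FPKM + 1) scale, was -0.17 over the members and -0.02 over all genes. An exact permutation test of 2 against 2 animals cannot give a two-sided p below 0.333, the value for each of the 7 members whose groups did not overlap.

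Ptk2b, the gene named by the KO label, was not lower in the libraries with that label: 232 and 202 FPKM in the WT animals against 278 and 269 FPKM, a log2 difference of 0.34 (SE 0.07, limma adjusted p = 0.158). A gene-level value does not show the loss of an exon or of the protein, so all directions here follow the labels as given. The libraries held 26508 to 27903 genes above 0 FPKM. Read totals were not used here. The widths of the deposited intervals, read as counting error alone, correspond to 39 to 70 fragments per library for Igf1 and 215 to 2815 for the other members. Of 40 pairs of technical replicates of the members, 2 differed by more than the 95% range of those intervals, 1 each for Igf1r and Igfbp6.

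Among the ligands, Igf2 showed the widest separation. Igf2 (ENSMUSG00000048583, chromosome 7, 142650766 to 142666816 in mm10, protein-coding) was at 66.2 and 67.8 FPKM in the libraries of WT1, 118 and 119 in WT2, 16.8 and 16.3 in KO1, and 25.6 and 27.0 in KO2. Every library labelled KO was below every WT library, and WT2 stood well above WT1. The group means of 92.8 and 21.4 FPKM differ 4.32-fold, a log2 difference of -2.04 (SE 0.33, 95% interval -2.89 to -1.19) that did not pass in limma (adjusted p = 0.111). With 1 animal left out the difference was -2.45 to -1.63 (limma adjusted p 0.0844 to 0.461).

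Igf1, the ligand best known from growth hormone signalling (ENSMUSG00000020053, chromosome 10, 87858265 to 87937042), was at 0.922 and 1.25 FPKM in WT1, 1.39 and 1.19 in WT2, 1.26 and 1.44 in KO1, and 1.15 in both libraries of KO2. The groups overlapped, and the technical replicates of WT1 spanned most of the range. The log2 difference was 0.04 with a 95% interval of -0.21 to 0.29 (limma adjusted p = 0.882), and it changed sign without WT1 or without KO1 (-0.03 in both cases). Igf2 made up 98.4% and 98.9% of the summed ligand FPKM in the WT animals and 92.5% and 95.8% in the KO-labelled animals. Per unit of Igf1, Igf2 was at 61.7 and 91.9 in WT, 12.3 in KO1 and 23 in KO2.

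The receptors were close between the groups. Igf1r, which signals through PI3-kinase and AKT (ENSMUSG00000005533, chromosome 7, 67952827 to 68233668), had animal means of 5.78 and 5.32 FPKM in WT and 5.30 and 5.10 FPKM in the KO-labelled animals, a log2 difference of -0.08 (SE 0.07, 95% interval -0.25 to 0.10, limma adjusted p = 0.631). The difference was -0.03 without WT1 and -0.13 without WT2. The lower WT animal and KO1 were almost level. Igf2r (ENSMUSG00000023830, chromosome 17, 12682406 to 12769664) was at 5.68, 6.05, 6.38 and 6.17 FPKM in the WT libraries, against 4.49, 4.65, 5.37 and 5.57 FPKM in those labelled KO, without overlap and with KO1 lowest. The log2 difference was -0.24 (SE 0.09, 95% interval -0.48 to 0.01, limma adjusted p = 0.328). The difference was -0.13 without KO1 and -0.34 without KO2. Airn, the noncoding RNA that overlaps Igf2r on the other strand and is known for silencing the paternal copy, was at 0.720 and 1.41 FPKM in WT and 0.590 and 1.07 FPKM in the KO-labelled animals. No strand setting is given in the sources used here, so reads of the pair may not be fully separated.

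Igfbp2, a binding protein abundant in cerebrospinal fluid (ENSMUSG00000039323, chromosome 1, 72824503 to 72852474), followed Igf2 closely. The libraries read 70.5 and 69.8 FPKM in WT1, 103 and 100.2 in WT2, 16 and 15 in KO1, and 24.3 and 22.9 in KO2. As for Igf2, the KO libraries lay below all WT libraries and KO1 was the lowest animal. The group means of 86 ± 22.4 and 19.6 ± 5.72 FPKM differ 4.40-fold, a log2 difference of -2.08 (SE 0.25, 95% interval -2.73 to -1.44, limma adjusted p = 0.0981). Igfbp2 passed without KO2 (limma adjusted p = 0.0486), where the lone KO animal is assumed to vary like the WT group, and adjusted p ranged from 0.00579 to 0.39 over the alternatives. The ratio of Igf2 to Igfbp2 was 0.955 and 1.16 in the WT animals and 1.07 and 1.12 in the KO-labelled animals, so it overlapped between the groups although both levels were more than 4-fold apart.

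Igfbp5, a binding protein of neurons and other cells (ENSMUSG00000026185, chromosome 1, 72857932 to 72874884), is the neighbour of Igfbp2. Its libraries were at 31.2, 31.4, 29.9 and 29.7 FPKM in WT, against 29.7, 29.3, 25.7 and 25.0 FPKM in those labelled KO. KO1 was close to WT2, and KO2 was lowest. The log2 difference was -0.16 (SE 0.08, 95% interval -0.36 to 0.05, limma adjusted p = 0.42). The difference was -0.26 without KO1 and -0.05 without KO2. The ratio of Igfbp2 to Igfbp5 was thus 2.24 and 3.42 in WT but 0.526 and 0.932 in the KO-labelled animals.

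Igfbp4, which the protease Pappa cleaves to release IGF (ENSMUSG00000017493, chromosome 11, 99041244 to 99054392), was the only member above both WT animals in both KO-labelled animals. Animal means were 43.5 and 42.6 FPKM in WT, 54.6 in KO1 and 44.1 in KO2, so the difference rested on KO1. At the level of single libraries the groups overlapped, since 1 library of KO2 read 42.7 FPKM. The log2 difference was 0.18 (SE 0.10, 95% interval -0.08 to 0.45, limma adjusted p = 0.449), and it was 0.03 without KO1 and 0.34 without KO2. Igfbp2 made up 40.8% and 49.1% of the summed binding protein FPKM in WT and 12.6% and 20.3% in the KO-labelled animals, and Igfbp4 25.3% and 20.6% against 44.4% and 37.9%. The sum itself was 172 and 207 FPKM in WT and 123 and 116 FPKM in the KO-labelled animals.

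**Figure D2:**
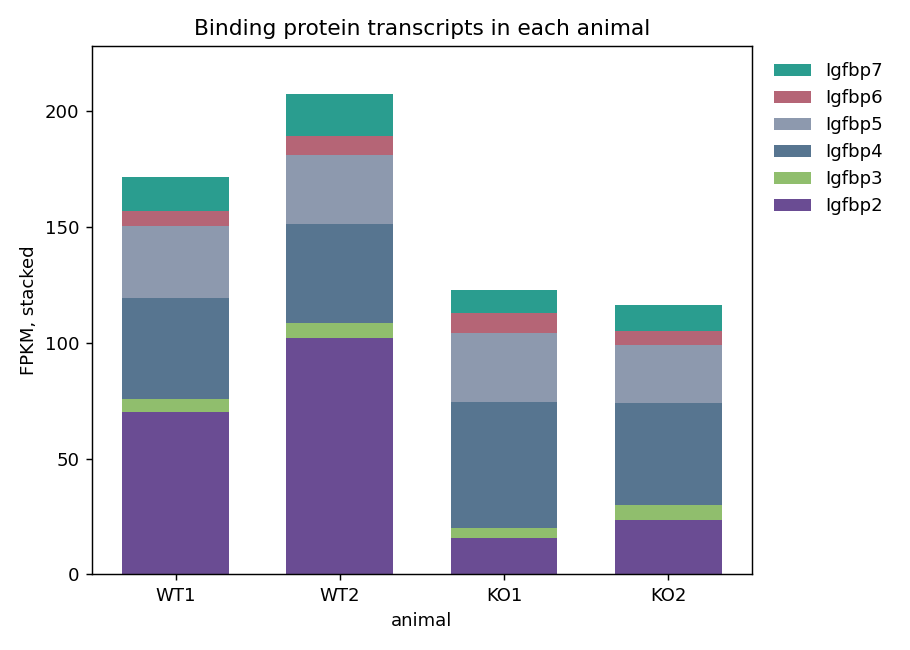
Stacked animal means of the 6 binding protein genes in FPKM, 1 bar per animal, with no error shown. Igfbp2 is the largest segment in WT1 and WT2, and Igfbp4 is the largest in KO1 and KO2.

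Igfbp7, a secreted protein of blood vessel walls that binds IGF only weakly (ENSMUSG00000036256, chromosome 5, 77349240 to 77408041), was intermediate. It stood at 15.3 and 14.8 FPKM in WT1, 17.9 and 18.7 in WT2, 9.34 and 10.3 in KO1, and 11.3 and 11.4 in KO2, with no library of either group inside the range of the other. The group means of 16.7 ± 2.33 and 10.6 ± 1.08 FPKM gave a log2 difference of -0.61 (SE 0.11, 95% interval -0.90 to -0.32, limma adjusted p = 0.128). Endothelial and mural markers were summed at 99.6 and 111 FPKM in WT and 94.1 and 97.8 FPKM in the KO-labelled animals. Of these 14 markers, 7 had both KO-labelled animals below both WT animals, where 30.7% of all genes did. Among the 3 highest of them in WT, Igfbp7 per unit of Vtn, of Ly6c1 and of Rgs5 was lower in both KO-labelled animals: 0.701 and 0.726 against 0.507 and 0.610 for Vtn, 0.722 and 0.769 against 0.437 and 0.542 for Ly6c1, and 0.979 and 1.06 against 0.674 and 0.62 for Rgs5. Igfbp7 overlaps Polr2b and the antisense gene Gm34648 on the other strand; Polr2b was at 17.6 and 17.2 FPKM in WT and 16.3 and 16.5 FPKM in the KO-labelled animals, and Gm34648 was listed at 0.

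Igfbp3, the main IGF carrier in blood serum (ENSMUSG00000020427, chromosome 11, 7206086 to 7213923), had animal means of 5.61 and 6.79 FPKM in WT, 4.49 in KO1 and 6.27 in KO2. Only KO1 was below the WT range, and the log2 difference of -0.18 (95% interval -0.59 to 0.23, limma adjusted p = 0.625) became 0.02 without KO1. Igfbp6, which prefers Igf2 over Igf1 (ENSMUSG00000023046, chromosome 15, 102144362 to 102149511), was at 6.36 and 8.09 FPKM in WT, 8.97 in KO1 and 5.68 in KO2. The KO-labelled animals lay on either side of the WT animals, and the log2 difference was -0.003 (SE 0.21, 95% interval -0.55 to 0.55, limma adjusted p = 0.996), with a sign that turned under median-of-ratios scaling (0.04) and quantile normalization (0.06).

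**Figure D3:**
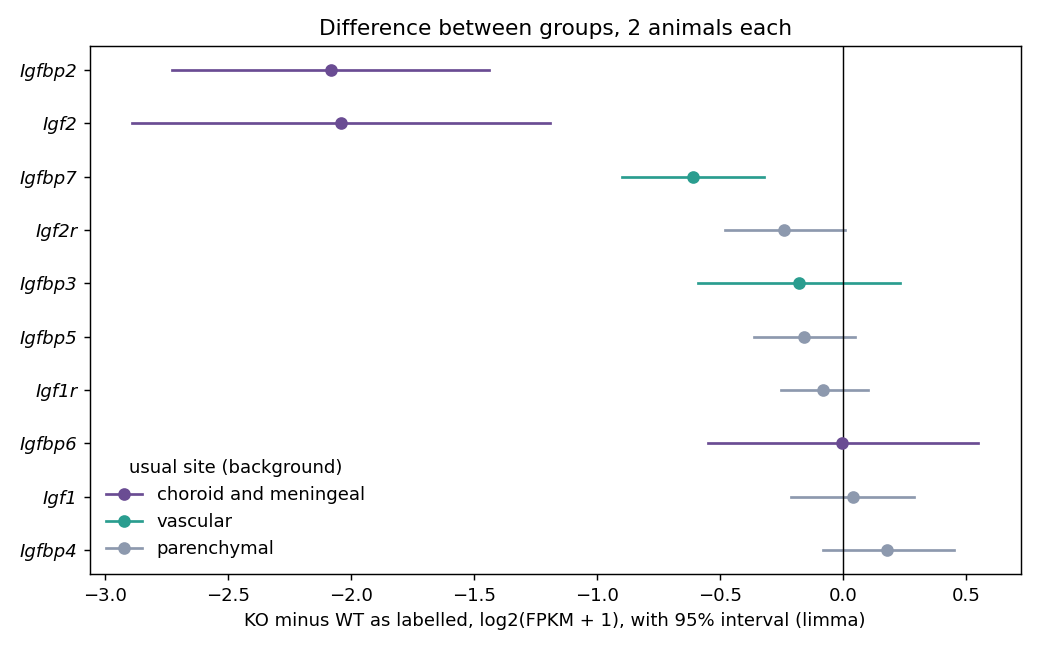
Log2 difference of each member, KO minus WT on the log2(FPKM + 1) scale, with the 95% interval from limma; colours give the class assigned from background knowledge. The intervals of Igf2, Igfbp2 and Igfbp7 lie below 0 and those of the other 7 genes include 0, although no member passed after adjustment over all genes.

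By class, the choroid and meningeal members had a median log2 difference of -2.04, the vascular members -0.40 and the parenchymal members -0.08, against -0.02 over all genes. These medians describe 3, 2 and 5 genes and were not tested. With 1 animal left out the vascular median ran from -0.55 (without KO2) to -0.25 (without KO1). Igfbp6 was near 0, unlike the other choroid and meningeal members, and in the vascular class Igfbp7 was at -0.61 and Igfbp3 at -0.18. Igf2 and Igfbp2 had the lowest values of the 10, followed by Igfbp7. In a bulk sample fewer cells of a type and less RNA per cell cannot be told apart.

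No choroid plexus marker passed in limma, but the whole list separated the groups. All 16 listed choroid plexus genes had both KO-labelled animals below both WT animals, where 30.7% of all genes did. None was at 0 in any animal, and their summed level was 4289 and 7567 FPKM in WT, 293 in KO1 and 1250 in KO2. Ttr, the transthyretin gene, was at 3366 and 6325 FPKM in WT, against 180 and 934 FPKM in KO1 and KO2. Enpp2, encoding autotaxin, was at 686, 925, 92.3 and 249.8 FPKM, and the folate receptor gene Folr1 at 43.6, 55.9, 2.38 and 11.7 FPKM, in the same order of animals. Igf2 and Igfbp2 shared this order of animals, with WT2 highest and KO1 lowest, but spanned less: Igf2 per unit of Ttr was 0.0199 and 0.0187 in WT, 0.0919 in KO1 and 0.0282 in KO2, and Igfbp2 per unit of Ttr was 0.0208, 0.0161, 0.0862 and 0.0253. Both ratios were thus highest in KO1, the animal with the least Ttr. Per unit of Folr1, Igf2 was at 1.54, 2.12, 6.96 and 2.26 and Igfbp2 at 1.61, 1.82, 6.53 and 2.02. Per unit of Enpp2 the groups overlapped, at 0.0977, 0.128, 0.179 and 0.105 for Igf2 and 0.102, 0.11, 0.168 and 0.0945 for Igfbp2. The place of KO2 thus depended on the marker used. The part of choroid plexus cells in the levels of Igf2 and Igfbp2 was not tested.

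Meningeal fibroblast markers were lower in the KO-labelled animals or overlapped between the groups. Of the 16 listed, 8 had both KO-labelled animals below both WT animals (30.7% of all genes). For 0 of them were both above (18.4% of all genes), and none was at 0. Their median log2 difference was -0.39. The summed level overlapped between the groups at 553 and 760 FPKM in WT, 589 in KO1 and 412 in KO2. Ptgds is the largest part of this sum, which hides the lower values of other markers. The highest in WT were Ptgds, encoding prostaglandin D synthase, at 472, 641, 533 and 345 FPKM (WT1, WT2, KO1, KO2), the matrix gene Mgp at 22.9, 35.3, 25.2 and 17.7 FPKM and the proteoglycan gene Dcn at 21.5, 35, 10.1 and 29.5 FPKM. None of these 3 had the profile of Igf2. Slc13a4, a sulfate transporter gene picked after its values were seen, shared the order of animals of Igf2. So did Bmp6, Slc6a20a and Lum of this list, with smaller log2 differences of -1.22, -0.83 and -0.49. Igf2 per unit of Bmp6 was 12.7, 18.9, 8.9 and 13.6, with overlap between the groups. Slc13a4 was at 9.79 and 13 FPKM in WT, against 2.21 and 3.6 FPKM in the KO-labelled animals. Its log2 difference of -1.68 was the lowest of the 16, so it does not stand for the list. It was not among the 3 nearest profiles of Igf2 or Igfbp2 described below. Igfbp2 per unit of Slc13a4 was 7.17, 7.81, 7.03 and 6.56, and Igf2 per unit of Slc13a4 was 6.85, 9.09, 7.50 and 7.32, with both groups overlapping for Igf2. All 5 blood markers also had both KO-labelled animals below both WT animals (30.7% of all genes). Their summed level was 287 and 317 against 149 and 158 FPKM. Hba-a1 and Hba-a2, which encode alpha globin, passed the threshold in limma (adjusted p = 0.0372 and 0.0373). The means of these 2 genes were 77.2 against 38 and 93.2 against 47.7 FPKM. The part of meningeal cells and blood in these results was not tested.

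**Figure D4:**
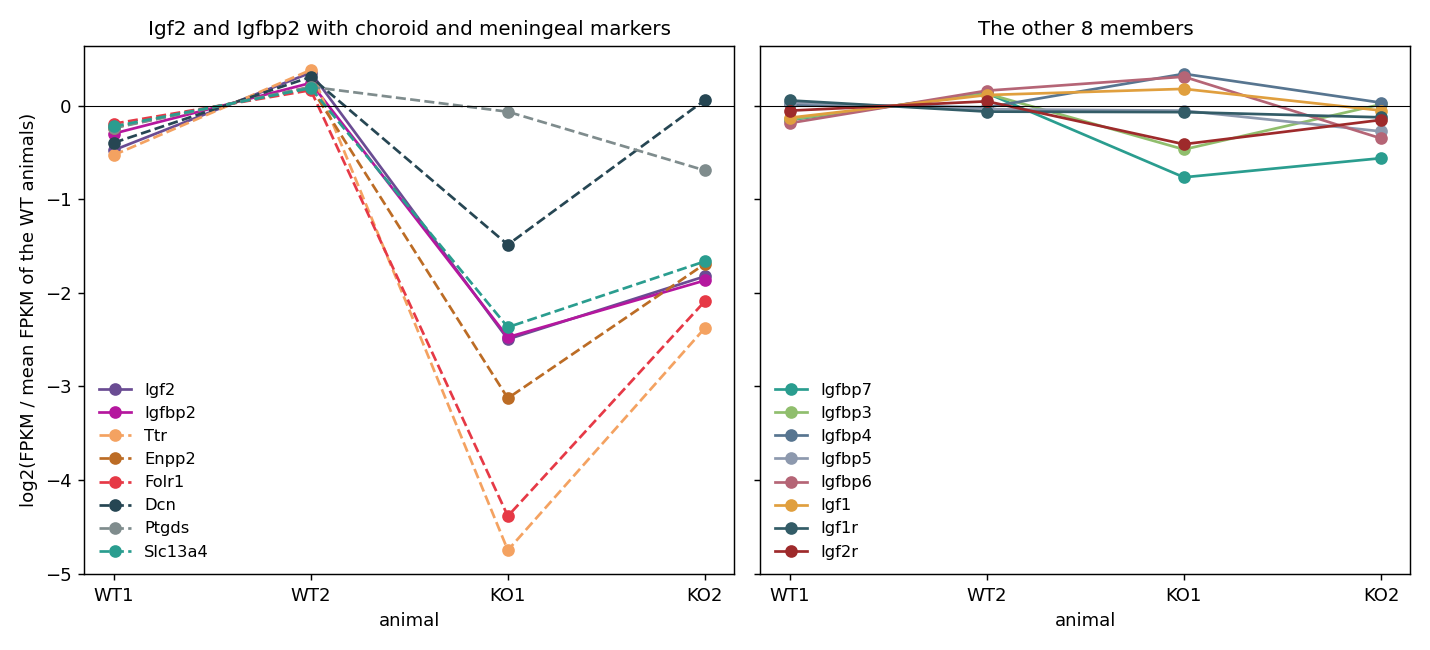
Animal means of each gene as log2 of FPKM over the WT mean; solid lines join the values of a member, dashed lines those of a marker gene, and the lines only help to follow a gene since the animals have no order. Igf2 and Igfbp2 run together with Slc13a4 and lie above Ttr and Folr1 in KO1. Slc13a4 is on the meningeal list used here, was picked after its values were seen and does not stand for that list. Which cells it came from was not tested. The other 8 members stay within 1 log2 unit of the WT mean.

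The summed levels of parenchymal cell markers were closer between the groups. The summed level of 9 microglia markers was 203 and 192 FPKM in WT and 225 and 197 FPKM in the KO-labelled animals, that of 5 astrocyte markers 394 and 359 against 380 and 377 FPKM, and that of 7 interneuron markers 559 and 550 against 560 and 556 FPKM. The 9 excitatory neuron markers summed to 1431 and 1329 against 1569 and 1531 FPKM. Both KO-labelled animals were above both WT animals for 4 excitatory neuron, 3 interneuron, 3 microglia and 1 astrocyte markers (18.4% of all genes). In the same order of lists, both were below both WT animals for 0, 1, 0 and 1 (30.7% of all genes). Sst is the largest part of the interneuron sum, which hides members that went in different directions: Vip was at 6.01 and 7.65 against 9.9 and 8.95 FPKM, and Slc32a1 at 40.2 and 35.7 against 30.5 and 32.5 FPKM, both picked after their values were seen. None of these markers passed in limma. All markers of these 4 lists were above 0 in every animal, as the labelled tissue, hippocampus, would have.

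The genes with the most similar profile over the 4 animals were found by the root mean square distance between centred log2(FPKM + 1) values among 9730 genes with a mean of at least 5 FPKM. Rdh5, a retinol dehydrogenase gene, was the nearest for both Igfbp2 (distance 0.106) and Igf2 (0.162), at 19.2 and 26.1 FPKM in WT and 2.96 and 6.12 FPKM in the KO-labelled animals. Next came the tight junction gene Cldn2 (0.163) and the homeobox gene Otx2 (0.190) for Igfbp2, and the secreted antagonist gene Sostdc1 (0.194) and Cldn2 (0.216) for Igf2. Otx2 and Sostdc1 are on the choroid plexus marker list used here. Igfbp7 was nearest to the semaphorin receptor gene Plxnb2 (0.023), Gas6, a ligand of TAM receptors (0.025), and Ifitm2 (0.034). For the other members the nearest genes were Rpa3 for Igf1 (0.004), Tmem80 for Igf1r (0.004), Ap5z1 for Igf2r (0.011), Pafah1b3 for Igfbp3 (0.011), Cldn10 for Igfbp4 (0.020), B2m for Igfbp5 (0.008) and Pkib for Igfbp6 (0.068). With 4 animals these distances are descriptions.

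Of the genes next to Igf2, H19 and the antisense gene Igf2os were close to 0. H19, the maternally expressed noncoding RNA 72622 bases away, was at 0.116, 0.185, 0.0348 and 0.108 FPKM in WT1, WT2, KO1 and KO2, and Igf2os, which overlaps Igf2, at 0.154, 0.141, 0.0465 and 0.0414 FPKM. Both were too low to be tested, and Igf2os cannot be separated from Igf2 without strand. Gm49394, a protein-coding gene that overlaps Igf2 on the same strand, was at 0.0924 and 0.0416 FPKM in WT and near 0 in the KO-labelled animals. Ins2, an insulin gene 11839 bases from Igf2 on the same strand, was at 0.765 and 1.83 FPKM in WT, against 0.277 and 0.229 FPKM in KO1 and KO2. It passed the minimum only through the WT animals, so its lower value is given as a description. Ins1, the other insulin gene, was listed at 0 in every animal.

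The wider insulin and IGF system was represented by 49 listed genes, of which 38 met the minimum and 0 passed in limma in either direction. At an unadjusted p under 0.05, 3 had a higher and 4 a lower mean in the KO group, where 4.11% and 11.4% of all genes did, so the lower count is near the background. The 4 include Ins2, which met the minimum only through WT. The median log2 difference of the 38 was 0.01. The carriers Igfbp1 and Igfals and the protease genes Pappa and Pappa2 were among those below the minimum, with no mean above 0.239 FPKM in either group. Of the 6 measured ligands, carriers and proteases, Adamts1, a secreted protease gene, was at 7.93 and 7.97 FPKM in WT and 4.82 and 6.78 FPKM in the KO-labelled animals (log2 difference -0.41, SE 0.14). Among receptors and adaptors, the adaptor Shc1 was at 3.42 FPKM in both WT animals, against 2.89 and 2.45 FPKM in the KO-labelled animals (-0.27, SE 0.09), and Grb10, which restrains insulin and IGF receptors, at 9.64, 9.23, 6.77 and 8.38 FPKM (-0.29, SE 0.10). The insulin receptor gene Insr averaged 6.12 FPKM in WT and 5.69 FPKM in the KO-labelled animals, and the substrates Irs1 and Irs2 were at 2.12 and 16.4 FPKM in WT and 2.21 and 16.6 FPKM in the KO-labelled animals.

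Downstream, all 22 genes of the PI3-kinase, AKT, mTOR and FOXO arm met the minimum, with 13 higher and 9 lower means and a median log2 difference of 0.02. Rheb, the GTPase that activates mTOR, was at 44.6, 44.8, 51.4 and 47.8 FPKM, and the kinase gene Gsk3b at 25.1, 24.9, 27.1 and 27.1 FPKM. Mtor itself averaged 16.2 FPKM in both groups, and Foxo1 and Foxo3 overlapped between them.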

How the data were processed

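Total RNA was used for the libraries, per the labels' protocols. The authors deposited FPKM per gene, with an interval and a status flag, per the file headers, and the submitters' processing notes name mm10, Bowtie (version 1) and HISAT, without their roles. Of 55241 rows per table, those that repeat a gene identifier were summed, values with a status other than OK (0 to 3 per library) were set to missing, and technical replicates were averaged per animal. The test covered genes reaching 0.5 FPKM in 2 animals as log2(FPKM + 1), KO minus WT, with limma 3.58.1 in R 4.3.3 (trended variance, Benjamini-Hochberg adjustment over all genes, threshold 0.05). The pseudocount understates differences of low genes. FPKM keep no read totals, so the depth is unknown and the deposited intervals were read as counting error only.

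The members, gene lists and tests were chosen with earlier results of these data known. All members were named; of the other pathway genes, up to 4 with the smallest p in each direction, some of which are not reported here; of marker lists, up to 3 members highest in WT; and the 3 nearest profiles, of which only the first is printed for members other than Igf2, Igfbp2 and Igfbp7. Slc13a4, Bmp6, Slc6a20a, Lum, Myh11, Vip, Slc32a1, Polr2b, Gm34648, Gm49394, Igfbp1, Igfals, Pappa, Pappa2, Ins1, Insr, Irs1, Irs2, Mtor, Foxo1 and Foxo3 were picked afterwards or as overlapping genes. Coordinates of the members equal GENCODE M21 once starts are counted from 1. All 10 members matched the RefSeq promoter table, in 14 windows. Figures were drawn with matplotlib 3.10.9. Alternatives are given in the closing section.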

Additional observations from a re-analysis of the deposited data

How the results depend on the processing

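Igf2, Igf1r, Igf2r, Igfbp2, Igfbp4, Igfbp5 and Igfbp7 kept their direction under all 14 alternatives. The count of members past the threshold, 0, became 3 with the animal number as a replicate block (Igf2, Igfbp2 and Igfbp7; limma adjusted p = 0.0106, 0.00579 and 0.0349), 1 at an adjusted p under 0.1 (Igfbp2), and 0 to 1 with 1 animal left out. The labels do not tie equal numbers to a shared litter, batch or day and there are only 2 pairs, so the block is not the better design; across genes, WT1 minus WT2 and KO1 minus KO2 correlated at 0.11. The count over all genes, 9, became 184 with the block, 0 with no filter on low values (3741 at an unadjusted p under 0.05), 14 with a pseudocount of 0.1 FPKM, 19 and 35 with technical replicate 1 or 2 alone, 20 with KO1 from its second library alone, 1 without a variance trend, 175 at an adjusted p under 0.1, and 0 to 128 with 1 animal left out. Leaving out KO2 gave the 128, and leaving out WT1 or WT2 gave 0 (1631 and 1327 unadjusted). Signs turned for Igf1 without WT1 and without KO1 (-0.03 each), for Igfbp3 without KO1 (0.02; range -0.39 to 0.02 with 1 animal left out), and for Igfbp6 under median-of-ratios scaling (0.04), quantile normalization (0.06), technical replicate 2 alone (0.13), KO1 from its second library alone (0.04), without WT2 (0.15) and without KO2 (0.29; range -0.29 to 0.29). The median of the parenchymal members was -0.01 after quantile normalization and -0.13 to -0.03 with 1 animal left out. The cause of these shifts was not tested. The count of other pathway genes past the threshold was 0 under every alternative. With 2 animals per group, small differences such as those of Igf1r and Igfbp5 could not be told from spread between animals. The larger differences of Igf2 and Igfbp2 did not pass in the main fit either.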
